A study of Mus musculus with 20 samples.

Results

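The S100 proteins are small calcium-binding proteins, and 9 of their genes (S100a1, S100a4, S100a6, S100a8, S100a9, S100a10, S100a11, S100a13 and S100a16) are described here, of 54838 genes in each count table. The genes were chosen by their measured levels in these libraries, since several of them differed between the mouse lines in opposite directions, so differences between the lines are given as a description and only differences between the stages of the estrous cycle are tested for the members. Ovaries came from 20 female mice aged 77 days, with 5 animals in each of 4 groups of line (ctrl or FL1) and stage (estrus or diestrus). FL1 is an outbred line that was bred over many generations for large and heavy litters, whereas ctrl is an unselected line from the same founder stock. A single selected population and a single unselected population were compared, animals within a line are not genetically identical, and the mice received no treatment. The stage was read from vaginal smears, and the tunica albuginea, the oviduct and the fat around the ovary had been removed. Each library holds the 3' ends of the messenger RNAs of an ovary, and the library totals ranged from 5991223 to 10352718 counts (median 6957533).

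S100 proteins are dimers of subunits with paired EF-hand loops. In most of them, binding of calcium opens a surface that grips target proteins such as annexins, myosins and other parts of the cytoskeleton. Some also act outside the cell, where S100a8 and S100a9 form calprotectin, a protein that neutrophils hold in large amounts. In an ovary, the cell types that can carry such transcripts include the granulosa and theca cells of follicles, the steroid-producing cells of corpora lutea, stroma, vessels, the surface epithelium and immune cells. In RNA of a whole ovary, fewer cells of a type and less RNA per cell cannot be told apart.

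All 9 genes are protein-coding genes of chromosome 3 of the mouse genome build GRCm38, where they form 2 groups. S100a1 (ENSMUSG00000044080), S100a13 (ENSMUSG00000042312), S100a16 (ENSMUSG00000074457), S100a4 (ENSMUSG00000001020), S100a6 (ENSMUSG00000001025), S100a8 (ENSMUSG00000056054) and S100a9 (ENSMUSG00000056071) follow each other between positions 90511034 and 90695721. S100a11 (ENSMUSG00000027907, chr3:93520488-93526287) and S100a10 (ENSMUSG00000041959, chr3:93555080-93564643) lie 2.82 Mb farther on, and 28.8 kb separate them. S100a4 (chr3:90603771-90606045) and S100a6 (chr3:90612882-90624181) are 6.84 kb apart on the plus strand.

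S100a1 and S100a13 are read in opposite directions, away from each other, and the gene models of GENCODE leave 42 bases between them. RefSeq places the start of S100a1 elsewhere, and the windows from 250 bases before to 50 bases after the RefSeq starts (GRCm38.p6) share 204 bases (chr3:90514281-90514484). Both windows are shown because both genes were stronger expressed in diestrus over both lines, and the capitals mark the shared bases, which S100a1 reads on the minus strand (chr3:90514281-90514580) and S100a13 on the plus strand (chr3:90514185-90514484).
S100a13: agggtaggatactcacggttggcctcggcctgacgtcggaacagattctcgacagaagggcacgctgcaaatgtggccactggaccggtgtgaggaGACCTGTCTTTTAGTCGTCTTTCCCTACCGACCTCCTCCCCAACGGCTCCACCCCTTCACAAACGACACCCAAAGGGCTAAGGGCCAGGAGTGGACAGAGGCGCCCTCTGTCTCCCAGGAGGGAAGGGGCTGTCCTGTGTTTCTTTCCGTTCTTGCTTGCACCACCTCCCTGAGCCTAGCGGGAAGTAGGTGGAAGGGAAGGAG
S100a1: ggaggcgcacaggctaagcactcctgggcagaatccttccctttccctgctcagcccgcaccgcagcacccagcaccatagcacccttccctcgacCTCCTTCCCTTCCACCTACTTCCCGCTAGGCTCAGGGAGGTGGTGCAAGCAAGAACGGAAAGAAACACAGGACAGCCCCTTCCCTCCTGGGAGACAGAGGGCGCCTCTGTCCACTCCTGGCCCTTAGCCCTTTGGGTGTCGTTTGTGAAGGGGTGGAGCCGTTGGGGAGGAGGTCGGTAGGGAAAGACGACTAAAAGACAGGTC
Both strands of all windows were searched for 6 short motifs of promoters. They were the TATA box (TATAAA), which helps to place the start of transcription, the CCAAT box spelled by its name, the GC box that Sp1 binds (GGGCGG), the AP-1 motif (TGANTCA), the E box (CACGTG) and the full palindrome of the estrogen response element. The windows of S100a1 and S100a13 held none of these letters.

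The windows of S100a11 (plus strand, chr3:93520246-93520545), S100a4 (plus strand, chr3:90603520-90603819) and S100a6 (plus strand, chr3:90612644-90612943) are shown because these genes were among those that differed most between the lines, the first upwards and the others downwards in FL1. The capitals mark every match to the 6 motifs on either strand, and no matches overlap.
S100a11: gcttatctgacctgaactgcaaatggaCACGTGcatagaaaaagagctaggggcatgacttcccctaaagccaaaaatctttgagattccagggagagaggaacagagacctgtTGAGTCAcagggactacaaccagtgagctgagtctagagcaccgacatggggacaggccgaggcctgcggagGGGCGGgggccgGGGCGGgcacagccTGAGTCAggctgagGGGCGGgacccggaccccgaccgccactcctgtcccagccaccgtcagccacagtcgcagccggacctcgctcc
S100a4: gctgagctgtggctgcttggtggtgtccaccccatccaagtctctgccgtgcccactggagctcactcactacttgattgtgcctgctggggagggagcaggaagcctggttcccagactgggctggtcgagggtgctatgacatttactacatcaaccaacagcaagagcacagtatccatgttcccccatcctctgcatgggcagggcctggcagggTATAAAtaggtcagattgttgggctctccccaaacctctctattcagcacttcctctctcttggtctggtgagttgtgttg
S100a6: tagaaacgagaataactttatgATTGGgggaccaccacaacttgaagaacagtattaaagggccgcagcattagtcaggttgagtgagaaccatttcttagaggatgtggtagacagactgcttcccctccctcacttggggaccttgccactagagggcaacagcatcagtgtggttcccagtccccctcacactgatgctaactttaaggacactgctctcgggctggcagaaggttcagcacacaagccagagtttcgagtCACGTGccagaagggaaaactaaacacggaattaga
S100a11 held 3 GC boxes, 2 AP-1 motifs with first bases at -136 and -38 from the start, and an E box. Of all 32851 mouse windows of this kind, 35.7% held a GC box, 7.81% an AP-1 motif and 7.15% an E box. The S100a4 window held a TATA box at -31, a motif found in 13.6% of all windows, while the S100a6 window held an inverted CCAAT box (37.4% of all windows) and an E box. The estrogen response element was in 0 of the 9 windows found for 8 of the members (all but S100a10), and in 0.07% of all windows.

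S100a6, also known as calcyclin, was the most abundant member in all 20 libraries. It made up between 61.3% and 83.6% of the summed counts of the 9 genes after normalization. These levels are counts divided by the effective size of their library and brought to 1 scale (CPM). A 3' library gives a transcript about the same number of reads whatever its length, but only uniquely assigned reads were counted. Since S100a4, S100a10 and S100a11 share sequence with other genes, levels can be compared between genes only roughly. S100a4, which binds non-muscle myosin, and S100a10, the light chain that pairs with annexin A2, followed, at lower levels. S100a1, S100a11, S100a13 and S100a16 lay between 42.8 and 254 CPM. S100a8 and S100a9 were near the limit of what these libraries can show, with 0.0941 to 4.30 CPM and 0.329 to 3.23 CPM, where 3 counts correspond to 0.290 to 0.501 CPM.

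**Figure D1:**
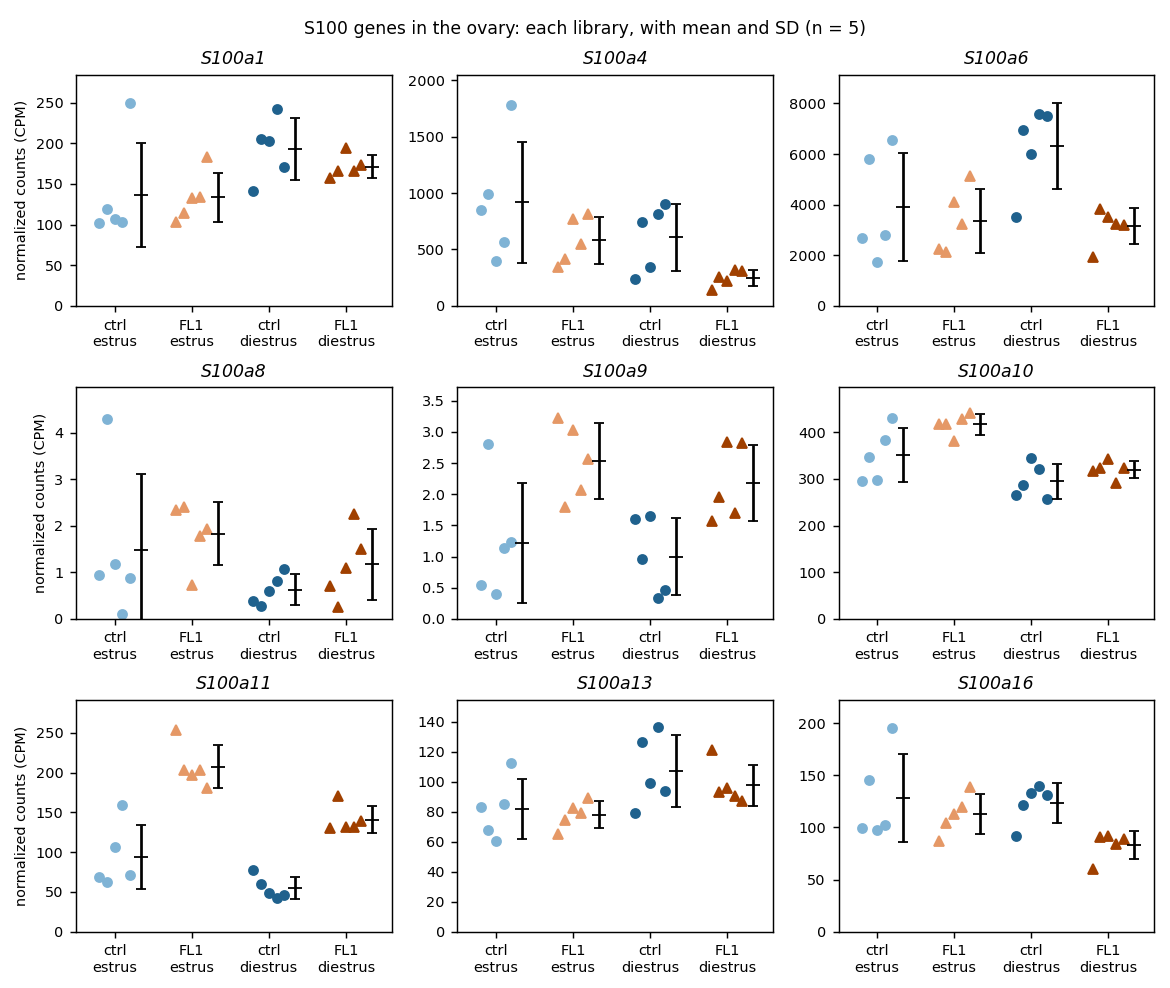
Normalized counts (CPM, linear axes from 0) of the 9 S100 genes in each library, by line and stage. Points are libraries, black bars are mean and SD (n = 5; a bar that would pass below 0 is cut at 0). S100a11 stands higher in FL1 than in ctrl in both stages, and S100a16 stands lower in FL1 in diestrus.

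In estrus, S100a11 was the member with the clearest difference between the lines. The 5 ctrl libraries held 68.7, 62.7, 107, 159 and 71.7 CPM, and the 5 FL1 libraries held 254, 203, 197, 203 and 181 CPM. All FL1 libraries lay above all ctrl libraries, and the fitted level in FL1 was 2.20-fold that of ctrl (log2FC 1.14, SE 0.22). S100a11 is an annexin A1 partner with roles in membrane repair and growth control. The ctrl library with 159 CPM, replicate 4, moved the value most, and without it the log2FC was 1.41.

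The other members overlapped between the lines in estrus. S100a4 read 849.6, 992, 398, 565 and 1781 CPM in ctrl and 342, 414, 771, 553 and 818 CPM in FL1, with a log2FC of -0.66 (SE 0.34). The value rested in large part on ctrl replicate 5, the highest of all 20 libraries, without which the log2FC was -0.27. S100a6 (log2FC -0.22, SE 0.34), S100a16 (-0.18, SE 0.19), S100a1 (-0.03, SE 0.24) and S100a13 (-0.07, SE 0.15) differed by less than their standard errors or about as much, and without ctrl replicate 5 their log2FC were 0.05, 0.03, 0.31 and 0.08. S100a10 had a log2FC of 0.25 (SE 0.11), with 296.03 to 431 CPM in ctrl and 381 to 442 CPM in FL1. Of the 9 members, 1 passed edgeR's threshold (adjusted p of at most 0.05) and 1 had no overlap between the lines. Among all 13374 genes of this comparison, 2.33% passed and 4.89% had no overlap, and since the members were listed for their line differences nothing is read from the counts.

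In diestrus, S100a11 was again higher in FL1, and S100a4, S100a6 and S100a16 were lower. The ctrl libraries held 77.4, 59.9, 49.0, 42.8 and 46.7 CPM of S100a11, and the FL1 libraries held 131, 170.2, 132, 131 and 139 CPM. The groups were again apart, with 2.53-fold the ctrl level in FL1 (log2FC 1.34, SE 0.15).

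S100a4 held 237, 741, 346, 815 and 899 CPM in ctrl and 142, 254, 224, 316 and 307 CPM in FL1. Its fitted level in ctrl was 2.44-fold that of FL1 (log2FC -1.29, SE 0.32), but ctrl replicate 1 with 237 CPM lay inside the range of FL1. S100a6 held 3512, 6933, 5999, 7603 and 7504 CPM in ctrl and 1951, 3848, 3518, 3232 and 3184 CPM in FL1, and the same ctrl library overlapped with FL1. The ctrl level was 2.01-fold that of FL1 (log2FC -1.01, SE 0.21).

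S100a16, a widely expressed member whose partners are less well known, held 91.5, 121, 133, 139 and 131 CPM in ctrl and 60.0, 90.5, 91.5, 83.7 and 89.1 CPM in FL1. The highest FL1 library (91.45 CPM) came just below the lowest ctrl library (91.49 CPM), and the log2FC was -0.57 (SE 0.13). S100a1 (-0.17, SE 0.12), S100a13 (-0.13, SE 0.14) and S100a10 (0.12, SE 0.09) overlapped widely between the lines. Of the 8 members that could be fitted, 4 passed the threshold and 2 had no overlap, compared with 4.11% and 5.45% of all 13259 genes, and again nothing is read from these counts. The median log2FC of the members was -0.15, and that of all genes was -0.01. Fitted together with the estrus libraries, which gives all 4 groups 1 common spread, only S100a11 passed in diestrus.

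**Figure D2:**
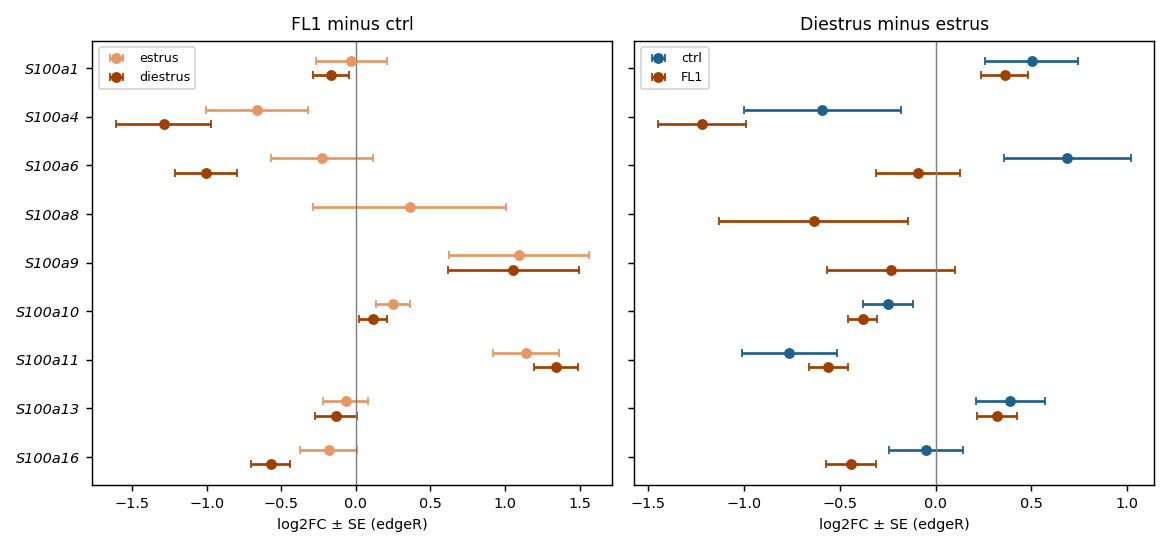
log2FC with its standard error for each S100 gene from edgeR (linear axes). The left plot gives FL1 minus ctrl in estrus and in diestrus, and the right plot gives diestrus minus estrus in ctrl and in FL1. S100a11 lies at 1.14 and 1.34 on the left, and S100a4, S100a10 and S100a11 lie below 0 in both lines on the right. A missing point is a gene with too few counts for the fit. On the left, S100a9 entered both fits through FL1, and S100a8 entered the estrus fit mostly through FL1. Their points there are no measure of size.

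The calprotectin genes were rare. S100a9 held 0.391 to 2.81 CPM in ctrl and 1.80 to 3.23 CPM in FL1 in estrus, and 0.329 to 1.65 CPM in ctrl and 1.57 to 2.83 CPM in FL1 in diestrus. It entered both fits through FL1, where it was higher, so no size is given for it between the lines. The lines overlapped in both stages, and no library had more than 29 counts. S100a8 had between 1 and 26 counts per library, the most in ctrl estrus replicate 2, and too few counts for a fit in diestrus. It entered the estrus fit mostly through FL1, so no size is given for it between the lines either. Of 14 neutrophil markers, Ly6g, Elane and Stfa2l1 were at 0 counts in all 20 libraries, and the sum of the list was 4.71 to 24.9 CPM, to which Lcn2 and Mmp9 gave most. That sum was 8.61 to 14.4 CPM in ctrl and 14.04 to 24.9 CPM in FL1 in estrus. In diestrus it was 8.35 to 21.7 CPM in ctrl and 4.71 to 8.99 CPM in FL1. The part of neutrophils in the levels of S100a8 and S100a9 was not tested.

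From estrus to diestrus, S100a4, S100a10 and S100a11 were weaker expressed in FL1 ovaries. The stages are another contrast than the one that chose the genes, but they use the same libraries, so a gene listed for a low level in FL1 diestrus, such as S100a4 or S100a16, is more likely to appear as lower in diestrus of FL1. S100a4 held 342, 414, 771, 553 and 818 CPM in estrus and 142, 254, 224, 316 and 307 CPM in diestrus. The stages did not overlap, and S100a4 fell by 1.22 on the log2 scale (SE 0.23, edgeR adjusted p = 0.00175). S100a11 fell from 181 to 254 CPM in estrus to 131 to 170.2 CPM in diestrus (log2FC -0.56, SE 0.10, adjusted p = 0.00132), also without overlap.

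S100a10 carries annexin A2 to the membrane and holds plasminogen activator at the cell surface. It read 417, 418, 381, 429.7 and 442 CPM in estrus and 317, 324, 344, 292 and 324 CPM in diestrus of FL1, a clear step down (log2FC -0.38, SE 0.07, adjusted p = 0.00233). S100a16 was also lower in diestrus (log2FC -0.44, SE 0.13, adjusted p = 0.0269), but its stages overlapped, with 86.6 to 139 CPM in estrus and 60.0 to 91.5 CPM in diestrus. S100a13, which takes part in the release of fibroblast growth factor 1, moved up from 65.3 to 89.0 CPM to 87.4 to 121 CPM (log2FC 0.32, SE 0.11, adjusted p = 0.0483). S100a13 passed in 2 of 10 fits that left out 1 library and in 4 of 8 other fits, and S100a16 in 6 of 10 and 7 of 8.

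S100a1, a regulator of calcium handling in muscle, had a like difference (log2FC 0.36, SE 0.12) with an adjusted p of 0.0552, and it passed in 4 of 8 other fits. S100a6 had a log2FC of -0.09 (SE 0.22, adjusted p = 0.818), S100a8 one of -0.64 (SE 0.49, adjusted p = 0.422) and S100a9 one of -0.23 (SE 0.33, adjusted p = 0.689). In all, 5 of 9 members passed in FL1, 1 higher and 4 lower in diestrus, and 3 of 9 had no overlap. Among all 13350 genes, 15.9% passed, 8.49% higher and 7.42% lower, and 12.2% had no overlap. The line differences that listed the members use the same FL1 libraries, so nothing is read from these counts. In the common fit of all 20 libraries, S100a4 and S100a10 passed and the adjusted p of S100a11 was 0.0747.

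In ctrl ovaries, 0 of 7 members passed edgeR's test between the stages, and 2 of 7 had an unadjusted p under 0.05, against 2.85% and 15.4% of all 13334 genes. S100a11 came closest (log2FC -0.76, SE 0.25, adjusted p = 0.137), with 62.7 to 159 CPM in estrus and 42.8 to 77.4 CPM in diestrus. DESeq2 and the common fit of all 20 libraries called S100a11, and limma-voom called S100a1. S100a6 had a mean of 3924 ± 2130 CPM (SD, n = 5) in estrus and 6310.1 ± 1689 CPM in diestrus, but the libraries overlapped (log2FC 0.69, SE 0.33, adjusted p = 0.347). S100a4 had a log2FC of -0.59 (SE 0.41, adjusted p = 0.553), S100a10 one of -0.25 (SE 0.13, adjusted p = 0.398), S100a1 one of 0.50 (SE 0.24, adjusted p = 0.346) and S100a13 one of 0.39 (SE 0.18, adjusted p = 0.324). S100a16 showed the smallest value (log2FC -0.05, SE 0.19, adjusted p = 0.943). Without ctrl estrus replicate 5 the log2FC of S100a4 was -0.20, that of S100a10 -0.16 and that of S100a1 0.84 (adjusted p = 0.00740), and without ctrl estrus replicate 4 that of S100a11 was -0.49.

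Over both lines, with line as a covariate, 5 of 9 members passed, 2 higher and 3 lower in diestrus. Of all 14154 genes, 14.8% passed, 7.09% higher and 7.74% lower. The line differences that listed the members come from the same libraries, so nothing is read from these counts. S100a11 (log2FC -0.66, SE 0.14, adjusted p = 0.00216), S100a10 (-0.32, SE 0.07, adjusted p = 0.00440) and S100a4 (-0.91, SE 0.26, adjusted p = 0.0211) were lower in diestrus. S100a13 (0.35, SE 0.11, adjusted p = 0.0286) and its head-to-head neighbour S100a1 (0.43, SE 0.14, adjusted p = 0.0449) were higher. S100a10 and S100a11 passed whichever of the 20 libraries was left out, S100a4 in 19 of the 20 fits (adjusted p = 0.0516 without ctrl estrus replicate 5), S100a13 in 14 and S100a1 in 4.

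Whether the stage effects of the members differ between the lines could not be tested apart from the choice of the genes, since the interaction of line and stage is built from the same line differences. As a description, it was -0.78 (SE 0.44) on the log2 scale for S100a6, -0.63 (SE 0.52) for S100a4, -0.39 (SE 0.25) for S100a16 and 0.20 (SE 0.28) for S100a11. In edgeR, DESeq2 and limma-voom 0 of 9 members passed, and 0 of 9 had an unadjusted p under 0.05 in edgeR, beside 0.0565% and 11.7% of all genes, and nothing is read from these counts.

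The order of the 4 groups differed from gene to gene. The means of S100a11 went from ctrl diestrus (55.2 ± 13.99 CPM) over ctrl estrus (93.8 ± 40.3 CPM) and FL1 diestrus (140.5 ± 16.9 CPM) to FL1 estrus (207 ± 27.4 CPM, each SD, n = 5), and only the step between the FL1 groups was free of overlap. S100a4 had its lowest mean in FL1 diestrus (249 ± 70.5 CPM), apart from FL1 estrus (579.6 ± 211 CPM), while FL1 estrus, ctrl diestrus (608 ± 296.4 CPM) and ctrl estrus (917 ± 536 CPM) overlapped. S100a6 was highest in ctrl diestrus, and the steps between the 3 lower groups were smaller than their SD. For S100a1 and S100a13 both diestrus groups had higher means than both estrus groups, and no neighbours in the order differed by more than the larger SD.

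Markers of several ovarian cell types moved with the stage. In diestrus, 6 of 6 stroma and fibroblast markers were lower in FL1 and 3 of 6 in ctrl, and their sum went from 3305 to 5479 CPM to 2036 to 2849 CPM in FL1 and from 3813 to 6227 CPM to 2207 to 3189 CPM in ctrl. Surface epithelium markers were lower in FL1 diestrus for 6 of 9 (sum 147 to 257 CPM in estrus, 87.2 to 127 CPM in diestrus). Smooth muscle markers were lower in FL1 diestrus for 4 of 6 and in ctrl diestrus for 2 of 6. Luteal markers were higher in FL1 diestrus for 5 of 6 and in ctrl diestrus for 1 of 6.

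In FL1 diestrus, 4 of 4 red blood cell markers, 3 of 5 endothelium markers and 3 of 5 granulosa markers were higher as well, and in ctrl 0 of 4, 0 of 5 and 1 of 5. The theca enzyme gene Cyp17a1 was higher in diestrus in ctrl (log2FC 5.02) and in FL1 (log2FC 3.83). Beside these counts, 15.9% of all genes passed in FL1 and 2.85% in ctrl. The part of these cell types in the stage differences of S100a4, S100a10, S100a11, S100a13 and S100a16 was not tested.

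The markers were also compared between the lines. In diestrus, the sum of the 6 luteal markers was 27924 to 48311 CPM in ctrl and 33341 to 43789 CPM in FL1, with 1 of 6 higher in FL1, the LH receptor gene Lhcgr. Of the stroma markers, 0 of 6 passed edgeR's test between the lines in either stage. Of the granulosa markers, 0 of 5 passed in estrus and 1 of 5 was higher in FL1 in diestrus, Foxl2 (log2FC 0.53). Of the surface epithelium markers, 1 of 9 was higher in FL1 in estrus and 1 of 10 lower in FL1 in diestrus. Macrophage and monocyte markers were higher in FL1 for 1 of 9 in estrus (Lyz2) and 2 of 9 in diestrus (Lyz2 and Cd68). The median log2FC of these 9 markers was -0.34 in estrus and -0.02 in diestrus. Beside these counts, 2.33% of all genes passed in estrus and 4.11% in diestrus. The part of these cell types in the line differences of the S100 genes was not tested.

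Within the groups, the members fell into sets that varied together. Correlations are given over the 20 libraries as deviations of log2 CPM from the group mean, without a test, and all values of a library share its depth and normalization factor. S100a6 and S100a16 had the highest correlation of the 36 pairs (Pearson's r = 0.91, Spearman's rank correlation 0.87), followed by S100a4 and S100a6 (r = 0.88, rank correlation 0.85), S100a1 and S100a16 (r = 0.86, rank correlation 0.79) and S100a4 and S100a16 (r = 0.80, rank correlation 0.70). The median over all pairs was 0.21. S100a1 and S100a13, the pair that shares a promoter window, had r = 0.71 (rank correlation 0.63), and 0.58 without the 2 libraries farthest from the median of S100a1.

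S100a11 ran against this set, with r of -0.60 to S100a4, -0.55 to S100a6, -0.54 to S100a16 and -0.48 to S100a1. Its closest neighbour S100a10 stayed apart (r = -0.07). S100a8 and S100a9, whose proteins form a complex, showed r = 0.09 at their low counts, where a weak correlation says little. S100a8 and S100a11 had r = -0.65, which fell to -0.31 without the 2 libraries farthest from the median of S100a8.

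The same set followed the luteal markers Lhcgr, Star, Cyp11a1, Hsd3b1, Ptgfr and Akr1c18, genes for the LH and prostaglandin F receptors and for steroid synthesis and breakdown. S100a6 had r = 0.91 (rank correlation 0.91) with the summed luteal level, S100a16 0.89 (rank correlation 0.87), S100a1 0.83 (rank correlation 0.80) and S100a4 0.79 (rank correlation 0.76), and S100a11 had -0.71 (rank correlation -0.68). Without the 2 libraries farthest from the median of the luteal sum these were 0.88, 0.83, 0.77, 0.69 and -0.70. Within each group of 5 libraries, S100a6 had r of 0.82 to 0.95 and S100a16 of 0.81 to 0.98. S100a1 had 0.83 to 0.86. The values of S100a11 and S100a4 did not hold alike in each group. S100a11 had r = -0.97 in ctrl diestrus and 0.23 in FL1 diestrus. S100a4 had r = 0.99 in FL1 estrus and 0.39 in FL1 diestrus. By single marker, S100a6 correlated with Ptgfr (0.88), Akr1c18 (0.84), Star (0.84) and Cyp11a1 (0.76), but hardly with Lhcgr (-0.03). With the granulosa markers, S100a1 (r = -0.80), S100a13 (-0.75), S100a6 (-0.67) and S100a16 (-0.65) ran in opposite directions, and without the 2 libraries farthest from the median of the granulosa sum these were -0.62, -0.58, -0.48 and -0.39. With the endothelium markers, S100a1 had r = 0.75 (rank correlation 0.72), and 0.57 without the 2 farthest libraries.

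**Figure D3:**
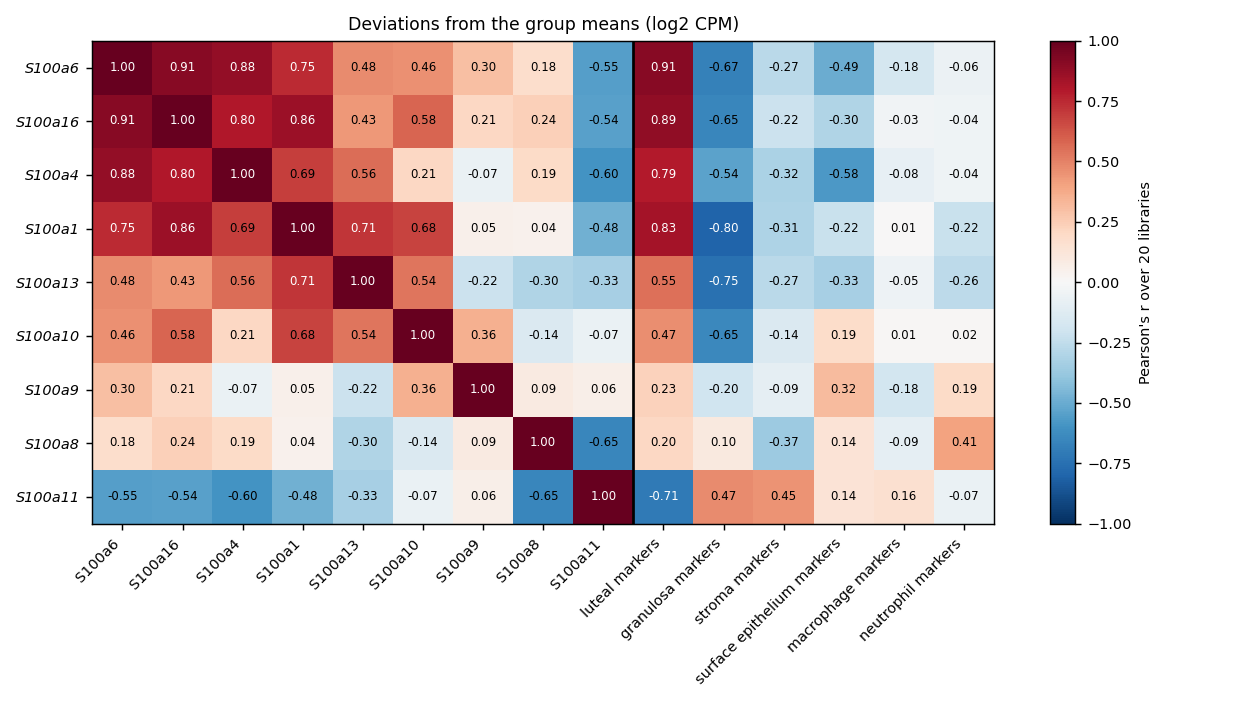
Pearson's r over 20 libraries between the deviations of log2 CPM from the group means, for each pair of S100 genes (left of the black line) and for each S100 gene with the summed level of 6 lists of cell type markers (right). S100a6, S100a16, S100a4 and S100a1 form a block with r of 0.69 to 0.91, share a high r with the luteal markers (0.79 to 0.91), and stand opposite to S100a11.

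Across the groups, S100a6 and the luteal sum were both higher in ctrl diestrus than in ctrl estrus, with group means of 6310.1 against 3924 CPM for S100a6 and 39537 against 23487 CPM for the luteal sum. FL1 diestrus departed from this. In ctrl estrus replicate 5 the luteal sum was 38118 CPM, the highest of its group, and this library also had the highest S100a1, S100a4, S100a6, S100a10, S100a13 and S100a16 of ctrl estrus. It stood out in other markers too, with the highest fat (140 CPM), oviduct (5.45 CPM) and endothelium (423 CPM) sums of ctrl estrus. Its granulosa sum (937 CPM) was the lowest of that group. The part of these markers in its S100 levels was not tested. In FL1 diestrus S100a6 was at 1951 to 3848 CPM at luteal sums of 33341 to 43789 CPM, whereas 4 of 5 ctrl diestrus libraries had 5999 to 7603 CPM at 36766 to 48311 CPM. FL1 estrus replicates 3 and 5 had 4091 and 5134 CPM of S100a6 at 33992 and 34219.8 CPM of luteal markers.

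**Figure D4:**
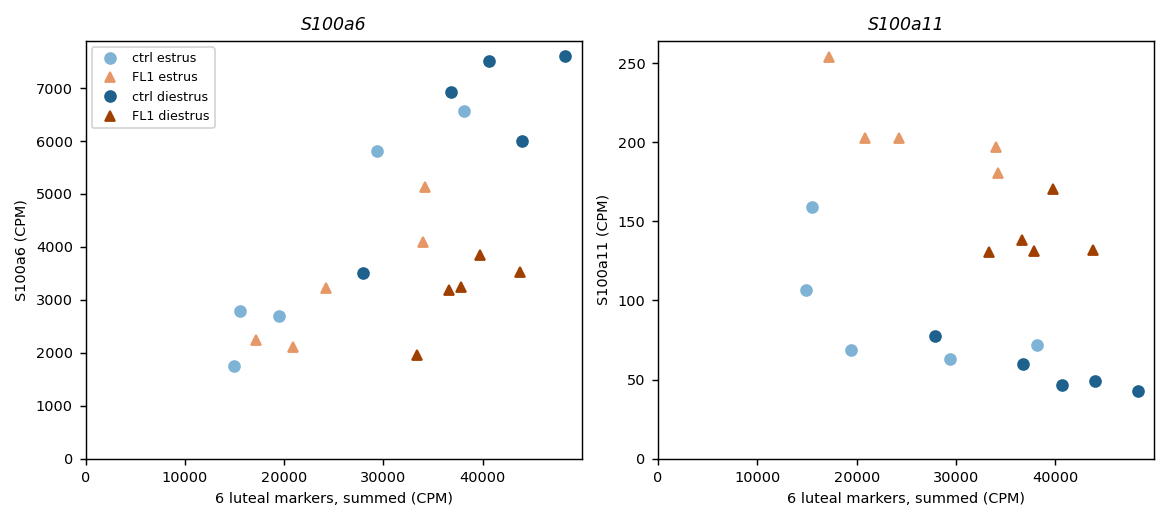
S100a6 (left) and S100a11 (right) in CPM against the summed level of 6 luteal markers (CPM), 1 point per library, linear axes from 0. S100a6 rises with the luteal sum, while the FL1 diestrus libraries (1951 to 3848 CPM) lie below 4 of the 5 ctrl diestrus libraries. In S100a11 the FL1 libraries lie above the ctrl libraries of the same stage.

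By the rule of the 3 highest correlations over the same 20 libraries, the genes most like S100a6 were Lpcat2 (0.92), S100a16 (0.91) and Slc35f6 (0.91), and those most like S100a4 were S100a6 (0.88), Pla2g16 (0.87) and Bhlhe40 (0.87). S100a16 was most like n-R5-8s1 (0.91), Rhod (0.91) and S100a6 (0.91). For S100a1 they were H2afj (0.93), Gabarap (0.91) and Atp6v1f (0.90), for S100a13 Rnf14 (0.89), Scamp1 (0.87) and App (0.86), and for S100a10 Cmtm8 (0.89), Smpd1 (0.87) and Tmem160 (0.84). S100a11 had lower values, with Rps7 (0.80), Cd9 (0.80) and Tdgf1 (0.79). For the rare S100a8 and S100a9 the highest were Rap2b (0.80) and Rps28 (0.77).

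The genes of proteins that S100 proteins bind were compared between the lines as well. Of 35 listed partners and receptors 31 could be tested, and 1 passed in each stage, beside 2.33% of all genes in estrus and 4.11% in diestrus. In estrus this was Cd36, a fatty acid receptor (log2FC 0.91, SE 0.19, edgeR adjusted p = 0.0228), and in diestrus it was Emb, the cell adhesion protein embigin (log2FC 0.67, SE 0.14, adjusted p = 0.0125), both higher in FL1. The median log2FC of the list was -0.06 in estrus and -0.05 in diestrus, and that of all genes was -0.01 in both. Anxa2, the partner of S100a10, had a log2FC of -0.14 (SE 0.16, adjusted p = 0.741) in estrus and -0.35 (SE 0.10, adjusted p = 0.0718) in diestrus. Anxa1, the partner of S100a11, had 0.21 (SE 0.21, adjusted p = 0.695) and -0.48 (SE 0.18, adjusted p = 0.177).

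Between the stages, 7 of the 31 passed in FL1, 3 higher and 4 lower in diestrus, beside 15.9% of all genes. Plat, the tissue plasminogen activator that S100a10 holds, fell by 1.57 on the log2 scale (SE 0.18, adjusted p = 1.57e-05) and did not overlap. The annexins Anxa5 (-0.31, SE 0.09, adjusted p = 0.0225) and Anxa6 (-0.40, SE 0.09, adjusted p = 0.00465) and the adhesion receptor Alcam (-0.63, SE 0.17, adjusted p = 0.0168) were lower. Emb (0.99, SE 0.18, adjusted p = 0.00142), Dlc1 (0.53, SE 0.08, adjusted p = 0.000365) and Hltf (0.44, SE 0.14, adjusted p = 0.0371) were higher. Anxa2 had a log2FC of -0.12 (SE 0.09, adjusted p = 0.409) beside the fall of S100a10. In ctrl 2 of 31 passed (2.85% of all genes), Cd36 upwards (0.76, SE 0.16, adjusted p = 0.0228) and Mcam downwards (-0.68, SE 0.16, adjusted p = 0.0353), and over both lines 8 of 31 passed, 2 higher and 6 lower (14.8% of all genes).

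Of 9 other S100 genes listed, 2 had enough counts for the fits within a stage or line, and 0 of these passed in any of them. S100g, the intestinal and uterine calbindin, held 0.913 to 23.9 CPM in ctrl and 1.61 to 8.12 CPM in FL1 in estrus (log2FC -1.48, SE 0.62, adjusted p = 0.253). In diestrus it held 1.84 to 34.7 CPM in ctrl (12 to 368 counts) and 0 to 3.40 CPM in FL1 (0 to 26 counts). It entered the diestrus fit through ctrl, so no size or p is given for that stage. S100b, known from glia, lay between 0.425 and 12.1 CPM (log2FC -0.44 in estrus and -0.94 in diestrus, adjusted p = 0.553 and 0.243). Of the rest, S100a3 reached 3.21 CPM and S100a14 2.14 CPM in their highest libraries, S100a2, S100a5, S100a7a and S100z were at 0 in most libraries and at most at 0.849 CPM, and S100a7l2 was not analysed here.

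Around the members, from 1 Mb before S100a1 to 1 Mb after S100a10, the annotation lists 220 other genes, of which 32 could be tested in estrus and 33 in diestrus. Tchh (chr3:93442330-93449077), which encodes the hair protein trichohyalin with an S100 domain at its start, was lower in FL1 in both stages. It held 2.87 to 11.4 CPM in ctrl and 0 to 0.600 CPM in FL1 in estrus, and 1.80 to 5.61 CPM against 0.283 to 1.57 CPM in diestrus. Its relative Tchhl1 (chr3:93468754-93471980) held 1.69 to 8.89 CPM in ctrl and 0 to 0.523 CPM in FL1 in diestrus, and had too few counts for a fit in estrus.

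Both genes lie directly before S100a11 on the chromosome, with 1 small annotated gene between. Both passed edgeR's threshold where they could be fitted and their lines did not overlap, but the FL1 libraries held 0 to 4 counts of Tchh in estrus and of Tchhl1 in diestrus. They entered the fit through ctrl alone, so no size or p is given for them. Beside the members, no other gene of this stretch that could be tested passed between the lines in edgeR. The counts behind them were low, with at most 65 for Tchh and 85 for Tchhl1 in a library. The median log2FC of the other genes tested in the stretch was 0.00 in estrus and 0.03 in diestrus.

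**Figure D5:**
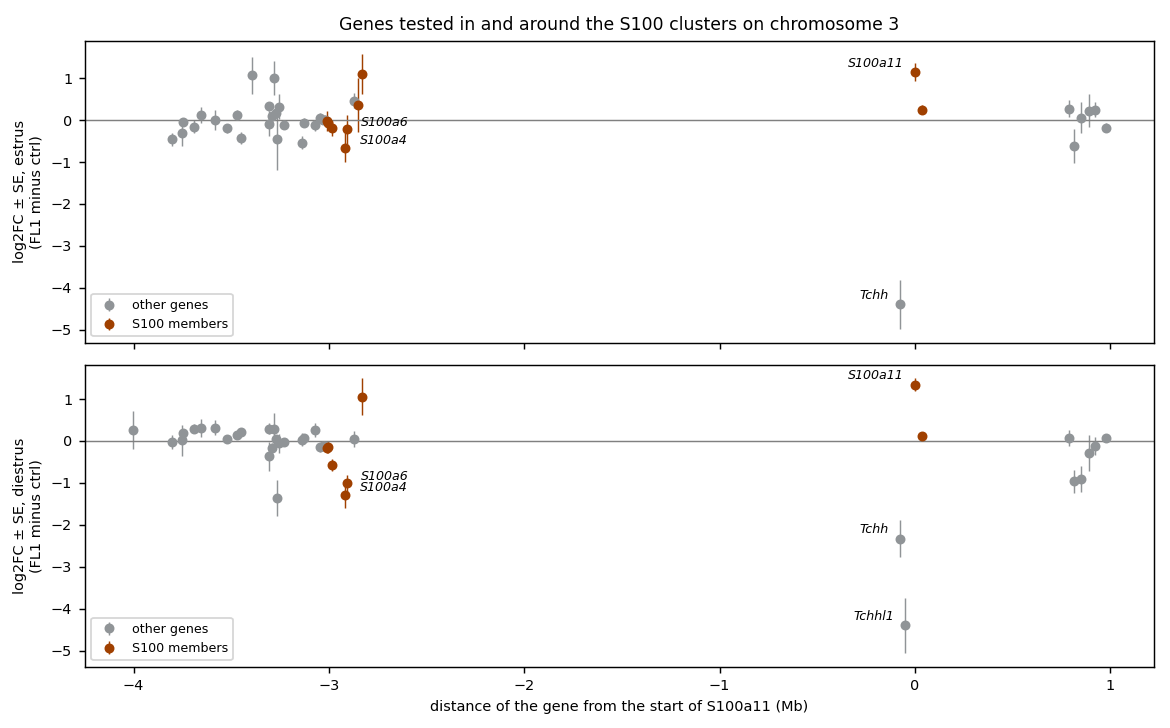
log2FC (FL1 minus ctrl) with its standard error of the genes tested in and around the S100 groups on chromosome 3, in estrus (top) and diestrus (bottom), against the distance of each gene's start from the start of S100a11 (Mb). S100a11 lies at 1.14 and 1.34, and most other genes lie near 0. The fitted values of Tchh and Tchhl1, far below 0, rest on FL1 libraries with counts near 0 and are no measure of size.

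Some members share sequence with other genes, which bears on how reads are placed. S100a11 shares 31-nt words with 5 genes, most with Gm12854 (89 words within the last 300 nt of its transcripts). These genes held 0 to 3 counts in 19 libraries and 58 in ctrl diestrus replicate 4, where S100a11 had 260 counts, and with them added to S100a11 no call changed. S100a4 is overlapped on its own strand by Gm42674 (0 counts in all libraries), and S100a10 shares 5 words with Gm4714.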

How the data were processed

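Ovaries of 20 mice were measured by QuantSeq 3' mRNA-Seq, 1 library per animal. Per the methods of the study, reads were trimmed, mapped to GRCm38 with STAR and counted where uniquely assigned. The authors deposited raw counts per Ensembl gene, without normalization. The counting tool and strand setting are not given in the sources used here, and the processing notes also name Cuffdiff. Group labels came from titles and characteristics. The source name reads FL1 for all samples and was not used.

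The 9 members, the lists of partners and markers and the tests were chosen with earlier results of these data known, and the stage comparisons share their libraries with the line comparisons that chose the members. Symbols and positions came from GENCODE M21 (54809 of 54838 genes matched). Counts were tested with edgeR 4.0.16 (R 4.3.3), quasi-likelihood test, TMM factors, filterByExpr with a minimum count of 10, within each stage or line (10 libraries) or over all 20. P-values were adjusted by Benjamini-Hochberg over all genes tested, and an adjusted p of at most 0.05 counts as called. SE was derived as log2FC over the root of F, without sign. CPM use TMM factors over 20 libraries, and correlations use log2 CPM with a prior count of 2. Animals are the replicates. At the depth of 5991223 to 10352718 counts, 3 counts (0.290 to 0.501 CPM) were taken as the floor, which covers counting error only, since no molecular identifiers are named.

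The text names all members, the other S100 genes, listed partners that passed or that a member's role names, genes within 1 Mb that passed between the lines, markers, and the 3 genes most alike each member. Of S100a8 and S100a9 only the most alike gene is named. Counts were simulated with 200 genes changed by 1.5 (log2). Of these, edgeR recovered 80.5% for the lines in estrus (13374 genes) and 81.0% for the stages in ctrl (13334 genes). It recovered 92.5% for the stages in both lines and 77.0% for the interaction (14154 genes). In the same order, 15 of 176, 10 of 172, 6 of 191 and 8 of 162 calls were of unchanged genes. The main fits gave no member a log2FC as large as 1.5, so these shares say little about smaller differences. Alternatives were DESeq2 1.42.0, limma-voom (limma 3.58.1), RLE size factors, no filter beyond 1 count in total, a filter of 10 counts in all libraries, a common fit of the 20 libraries, a replicate block, each library left out in turn, RLE-scaled marker sums, correlations with a prior count of 0.5 or by rank and, chosen after seeing the data, S100a11 with its copies added. Promoter windows are RefSeq reference sequence (GRCm38.p6), not that of these mouse lines. Python 3.11.15 with pandas 2.3.3 and scipy 1.17.1 was used for the description.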

Additional observations from a re-analysis of the deposited data

Results flagged for a closer look

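In 5 of 36 sets of 5 libraries (9 genes in 4 groups), the highest or lowest library stood apart from the others by more than Dixon's 95% critical value, and chance gives about 1 in 20. S100a1 held 249.8 CPM in ctrl estrus replicate 5, where the next library held 119 CPM. S100a8 held 4.30 CPM in ctrl estrus replicate 2, with 1.17 CPM in the next library. S100a11 held 170.2 CPM in FL1 diestrus replicate 2, with 139 CPM in the next. In FL1 diestrus replicate 1, S100a13 was high (121 CPM, next 95.7 CPM) and S100a16 was low (60.0 CPM, next 83.7 CPM).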

How the results depend on the processing

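The counts of called members for the lines in estrus (1) and for the interaction (0) were the same in all alternatives. For the lines in diestrus the count was 4, 1 in the common fit of all 20 libraries (S100a4, S100a6 and S100a16 lost), and 2 to 4 with 1 library left out, where S100a4 was lost without any of the 5 FL1 libraries and without ctrl replicates 2, 4 or 5, and S100a16 without FL1 replicate 4 and ctrl replicates 3 or 4. For the stages in FL1 it was 5, 2 in the common fit, 4 with RLE factors (S100a13 lost), 5 with limma-voom (S100a13 lost, S100a1 gained), 6 with DESeq2 or without a filter (S100a1 gained), and 3 to 5 with 1 library left out (S100a13 kept only without diestrus or estrus replicate 5, S100a16 lost without diestrus replicates 1 or 4 and estrus replicates 4 or 5, S100a1 gained without estrus replicate 5). For the stages in ctrl it was 0, and 1 with DESeq2, limma-voom or the common fit, with 0 to 1 when 1 library was left out (S100a1 without ctrl estrus replicate 5). Over both lines it was 5, with 3 to 5 (S100a1 kept only without FL1 estrus 5, ctrl estrus 5, ctrl diestrus 1 or ctrl diestrus 5, S100a13 lost without FL1 estrus 1, FL1 diestrus 1, ctrl estrus 2 or 3, or ctrl diestrus 2 or 4). The log2FC of S100a16 between the stages in ctrl turned to 0.13 with limma-voom and ranged from -0.13 to 0.16 with 1 library left out, and that of S100a6 in FL1 ranged from -0.23 to 0.11. Interaction values near 0 also changed sign, S100a8 to -0.38 with limma-voom (-0.37 to 0.89 with 1 library left out), S100a9 (-0.55 to 0.24), S100a13 (-0.21 to 0.032) and S100a11 (-0.075 to 0.36). The cause was not tested.

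Same-numbered libraries are different animals, and their deviations from the group means had correlations of -0.10 to 0.13, so the replicate numbers were not taken as pairing. With the replicate number as a block, the called members were 1 and 4 for the lines in estrus and diestrus, 0 and 5 for the stages in ctrl and FL1 (S100a13 lost, S100a1 gained), 5 over both lines and 0 for the interaction, where S100a9 turned to 0.016. Over all genes, the calls differed by more than 1.5 times from edgeR's with DESeq2 for the lines in estrus (671 against 311) and diestrus (894 against 545), for the stages in ctrl (771 against 380) and for the interaction (148 against 8). They also did for the lines in estrus without a filter (477) and in the common fit (531), for the diestrus lines without a filter (846), for the ctrl stages in the common fit (909) and with limma-voom (655), and for the interaction without a filter (17), with limma-voom (31) or with the block (12). Without 1 library they ranged from 175 to 418, 349 to 594, 176 to 516 and 0 to 15 for the lines in estrus and diestrus, the ctrl stages and the interaction. S100a8 and S100a9 are limited by depth, since no library had more than 29 counts of either.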
